A study of Homo sapiens with 6 samples.

Results

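The collagen genes of 143B cells, a human osteosarcoma cell line, were compared between CNTNAP4 knockout (KO) and vector control (VC) cells, to ask which members of this gene family differed after CNTNAP4 gene deletion. Collagens were taken as every row of the deposited table whose gene symbol has the form COL, a number, A and a number, which gave 44 genes of the 54308 listed. Antisense genes and pseudogenes were not included. Each group had 3 RNA-seq libraries. VC cells had been transfected with a vector plasmid, and KO cells had been transfected with a plasmid for CRISPR/Cas9 deletion of CNTNAP4, for 48 h by the labels. The study's methods give a longer time, followed by sorting of single cells and growth of colonies, so the time from transfection to harvest is not clear. By the study's methods the sequenced cells were clonal, so a KO library differs from a VC library in its clone as well as in CNTNAP4, and these cannot be told apart. The number of clones behind the 3 libraries of a group is not given in the sources used here, so p-values measure the spread between these libraries.

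Collagens are proteins of the extracellular matrix in which chains with regularly spaced glycine wind into a triple helix. Fibrillar collagens, led by type I in bone, pack into the fibrils that carry load. Type IV collagen forms the sheet-like network of basement membranes, FACIT collagens sit on the surface of fibrils, and type VI collagen forms beaded filaments around cells. Osteoblasts make type I collagen as the main protein of bone, and osteosarcoma is defined by tumour cells that lay down osteoid. Chains are made as procollagen in the endoplasmic reticulum, where proline and lysine residues are hydroxylated, then exported, trimmed and crosslinked.

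Values are log2 signals that had been quantile-normalized between the 6 libraries, and every log2 difference is KO minus VC, with its standard error (SE). The depth of the libraries is unknown because the deposited values hold no counts. The linear unit under the log2 scale is not given, so a gap in level between different genes is not interpreted. Sums over genes and differences between paired chains are given to compare libraries, and which gene makes up most of a sum depends on that unit. CNTNAP4 had a value in VC replicate 3 alone (-7.18) and an empty cell in the other libraries, so no difference can be given for CNTNAP4. Libraries held a value for 20333 to 21041 genes and for 37 to 39 collagens, and Pearson's r across genes was 0.985 to 0.992 within groups and 0.964 to 0.981 between them. Of 8 osteoblast markers, IBSP had no value, BGLAP had values in 2 KO libraries only, SP7 had values near the lower end of the scale in 4 libraries, and SPP1, SPARC and ALPL were higher in KO. The log2 of the summed linear signal of these 8 genes, most of it from SPARC, was 6.66 to 6.71 in VC and 7.06 to 7.17 in KO. Of 8 chondrocyte markers, which overlap with the tissue of type II and type IX collagen, MATN3 was higher and MATN1 and CNMD were lower in KO. The same measure of these 8 genes, nearly all of it from SOX9, was 5.87 to 5.97 in VC and 5.91 to 6.06 in KO. For 6 blood markers it was -2.24 to -1.96 in VC and -4.21 to -3.82 in KO, without overlap, and for 5 endothelial markers it was -3.90 to -3.09 in VC and -3.48 to -2.62 in KO. For 6 epithelial markers it was 1.72 to 1.87 in VC and 0.96 to 1.26 in KO, most of it from EPCAM. EPCAM and CLDN4 were lower, KRT5 and CDH1 had no value in KO and KRT14 had none in any library. The part of these differences in the collagen results was not tested.

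Collagens changed in both directions. Both of the ubiquitous type IV chains (COL4A1, COL4A2), the 3 main type VI chains (COL6A1, COL6A2, COL6A3), COL18A1, COL13A1 and COL1A1 rose in KO. COL2A1, COL5A1, COL16A1, COL1A2, COL7A1, COL4A6 and COL12A1 fell. Of the 44 collagens, 37 had at least 2 values in each group and were tested, and 15 of these had an adjusted p under 0.05 (8 higher and 7 lower), which is 40.5% of those tested. Across all 19306 tested genes the share was 32.9%, with 13.1% higher and 19.8% lower. Whether these shares differ was not tested. The median log2 difference was -0.12 for the tested collagens and -0.13 for all tested genes. Among genes in the upper 50% of mean signal these medians were 0.33 for 15 collagens and -0.087 for all genes, so the direction for collagens turned. Groups did not overlap in 22 of the 37 collagens and in 57.1% of all tested genes. A change of at least 2-fold with an adjusted p under 0.05 was found in 4 collagens, of which COL4A1 and COL4A2 were higher and COL2A1 and COL5A1 were lower, against 9.53% of all tested genes.

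By class, 3 of 7 tested basement membrane collagens rose and 1 fell (median log2 difference 0.62). Of 11 fibrillar collagens 1 rose and 3 fell (median -0.16). In the FACIT class none rose and 2 of 8 fell (median 0.077). Of 11 tested collagens of other types 4 rose and 1 fell (median -0.12). In the same order the shares called were 57.1%, 36.4%, 25% and 45.5%. For all tested genes the share was 32.9%, with 13.1% higher and 19.8% lower. Whether any class differs from this background was not tested. The adjusted p of COL4A1, COL4A2, COL18A1, COL6A2, COL5A1 and COL2A1 remained under 0.05 with each library left out in turn. The other 9 called collagens lost it in at least 1 such fit, and none of the 15 changed sign. The count of collagens called higher was 5, 5 and 4 without VC replicates 1, 2 and 3 and 5 without KO replicate 3. The count called lower was 3, 4, 3 and 4 in the same fits. Of all tested genes, 7.54%, 13.1%, 6.57% and 10.9% were called in these fits. Without KO replicate 1, 10 collagens were called higher and 11 lower, when 47% of all tested genes were called. In that fit, COL4A5, COL8A1, COL8A2, COL24A1, COL9A2 and COL20A1 also passed, with adjusted p of 0.015, 0.028, 0.0125, 0.0464, 0.0384 and 0.0097. The first principal component, the main axis of difference between libraries, was taken over genes with a value in all 6 libraries. On it KO replicate 1 lay at 20.8, KO replicates 2 and 3 at 73.8 and 48.9 and VC libraries between -48.4 and -46.7. KO replicate 1 was thus the KO library nearest to VC over these genes, not in collagens alone.

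**Figure D1:**
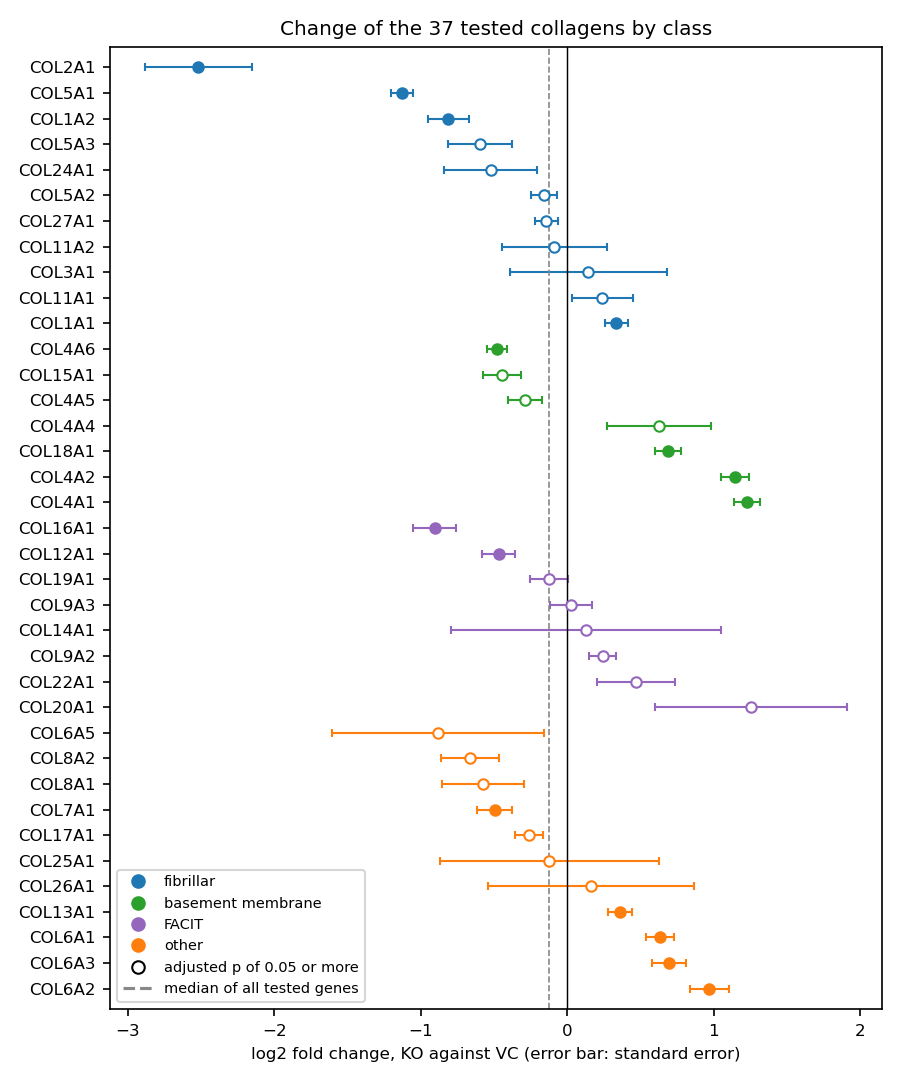
The log2 fold change of each of the 37 tested collagens, KO against VC, on the horizontal axis, ordered by class, with the SE as bars. Filled points mark the 15 collagens with an adjusted p under 0.05, and the dashed line marks the median of all tested genes, -0.13. The type IV chains COL4A1 and COL4A2 lie above 1 and COL2A1 lies below -2.

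The 6 type IV genes lie in pairs, head to head, so that the members of a pair are read away from each other from neighbouring starts. RefSeq starts of COL4A1 and COL4A2 are 127 bases apart on chromosome 13, those of COL4A6 and COL4A5 are 380 bases apart on chromosome X and those of COL4A4 and COL4A3 are 419 bases apart on chromosome 2. COL4A1 and COL4A2 of the first pair rose and COL4A6 of the second fell, while the other members did not pass the test or were not tested. The stretch between the COL4A1 and COL4A2 starts is shown whole, as is the 250 bases before the COL4A5 start, which lie between the COL4A6 and COL4A5 starts. The same stretches before COL6A2, which rose, and COL5A1, which fell, are shown for comparison. All are RefSeq sequences of build GRCh38.p14 on the plus strand, which is the strand of COL4A2, COL4A5, COL6A2 and COL5A1. Capitals mark 3 motifs, each searched on both strands, which do not share letters with each other. The first motif is CCAAT, which reads ATTGG on the opposite strand. The second is the GC box GGGCGG, which reads CCGCCC on the opposite strand. The last is the TATA box motif TATAAA, which reads TTTATA on the opposite strand.
COL4A1/COL4A2, chr13:110307158-110307283: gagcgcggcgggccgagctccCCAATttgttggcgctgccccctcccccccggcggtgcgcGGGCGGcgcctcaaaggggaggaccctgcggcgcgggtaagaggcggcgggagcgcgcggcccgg
COL4A5, chrX:108439588-108439837: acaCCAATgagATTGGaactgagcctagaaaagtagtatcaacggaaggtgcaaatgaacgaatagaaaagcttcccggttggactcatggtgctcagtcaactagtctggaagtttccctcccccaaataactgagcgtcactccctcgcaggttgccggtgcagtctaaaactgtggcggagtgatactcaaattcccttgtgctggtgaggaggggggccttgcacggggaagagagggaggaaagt
COL6A2, chr21:46097862-46098111: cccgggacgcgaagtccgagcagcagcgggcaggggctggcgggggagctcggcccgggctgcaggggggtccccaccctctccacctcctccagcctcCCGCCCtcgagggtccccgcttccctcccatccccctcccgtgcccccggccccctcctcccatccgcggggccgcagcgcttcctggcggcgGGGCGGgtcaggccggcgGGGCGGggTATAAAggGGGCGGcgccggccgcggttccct
COL5A1, chr9:134641553-134641802: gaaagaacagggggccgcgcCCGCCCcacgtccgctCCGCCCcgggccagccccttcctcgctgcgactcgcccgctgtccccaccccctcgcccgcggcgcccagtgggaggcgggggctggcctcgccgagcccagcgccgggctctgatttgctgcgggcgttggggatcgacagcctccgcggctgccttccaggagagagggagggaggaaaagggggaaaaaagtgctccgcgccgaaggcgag

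The 126 bases between COL4A1 and COL4A2 are 80.2% G and C and hold 1 CCAAT and 1 GGGCGG. The 250 bases before COL4A5 are 51.2% G and C and hold 2 CCAAT and no GGGCGG. COL6A2 (79.6% G and C) has 4 GGGCGG and 1 TATAAA, and COL5A1 (74.0% G and C) has 2 GGGCGG. Within 250 bases of the start, CCAAT is found in 33.0% of 27305 RefSeq promoters and in 9 of the 32 collagen promoters in the table, GGGCGG in 42.3% and 18 of 32, and TATAAA in 11.1% and 5 of 32. For the last 126 bases before the start, the length of the COL4A1/COL4A2 stretch, the shares of all promoters are 21.9%, 34.6% and 6.23%. These matches are descriptions of the letters and not of a factor's binding.

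COL4A1 and COL4A2, whose chains combine into the trimer found in nearly all basement membranes, were the collagens with the highest rise among those with an adjusted p under 0.05. COL4A1 had log2 signals of 4.04, 3.94 and 3.99 in VC replicates 1, 2 and 3 and of 5.10, 5.35 and 5.20 in KO replicates 1, 2 and 3. Every KO library was above every VC library, and the gap between the groups was several times the spread within either. Its log2 difference was 1.23 (SE 0.090, adjusted p 0.00571), a 2.34-fold rise. COL4A2 had log2 signals of 6.06, 5.83 and 6.02 in VC and 7.01, 7.22 and 7.12 in KO, again without overlap (log2 difference 1.14, SE 0.099, adjusted p 0.00675). The adjusted p of these genes was highest without VC replicate 3, at 0.036 for COL4A1 and 0.0376 for COL4A2. Within each library, COL4A1 minus COL4A2 was -1.98 ± 0.076 for VC and -1.90 ± 0.025 for KO (SD, n = 3 each), with libraries that overlapped, and the rises differed by 0.081.

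COL4A5 and COL4A6 encode chains of the basement membranes of kidney, lung, smooth muscle and skin. COL4A6 had log2 signals of 0.17, 0.13 and 0.16 in VC and -0.36, -0.26 and -0.36 in KO, and fell by 0.48 on the log2 scale (SE 0.067, adjusted p 0.0115, and 0.0547 without VC replicate 3). For COL4A5 the values were 1.05, 0.93 and 1.03 in VC and 0.93, 0.63 and 0.58 in KO, and KO replicate 1 lay just below the lowest VC library (log2 difference -0.29, SE 0.12, adjusted p 0.105). COL4A3 and COL4A4, chains of the glomerular basement membrane, were close to the lower end of the scale. COL4A3 had values of -9.02, -8.05 and -8.13 in VC and no value in any KO library, so no fold change is given. COL4A4 had values of -5.62, -6.79 and -5.69 in VC and -5.70, -5.28 and -5.25 in KO, which overlapped (log2 difference 0.62, SE 0.35, adjusted p 0.221).

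COL18A1 and COL15A1 encode the multiplexin collagens, which join basement membranes to the tissue beneath and whose C-terminal fragments, endostatin and restin, restrain vessel growth. COL18A1 had log2 signals of 4.01, 3.78 and 3.99 in VC and 4.65, 4.62 and 4.57 in KO. All KO libraries were above all VC libraries, with a log2 difference of 0.69 (SE 0.090, adjusted p 0.0105, highest 0.0452 when a library was left out). COL15A1 had values of -2.11, -2.17 and -2.52 in VC and -2.72, -2.62 and -2.77 in KO. The KO values lay below the VC values, and the log2 difference of -0.44 had an adjusted p of 0.0523 (0.0478 without VC replicate 3).

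**Figure D2:**
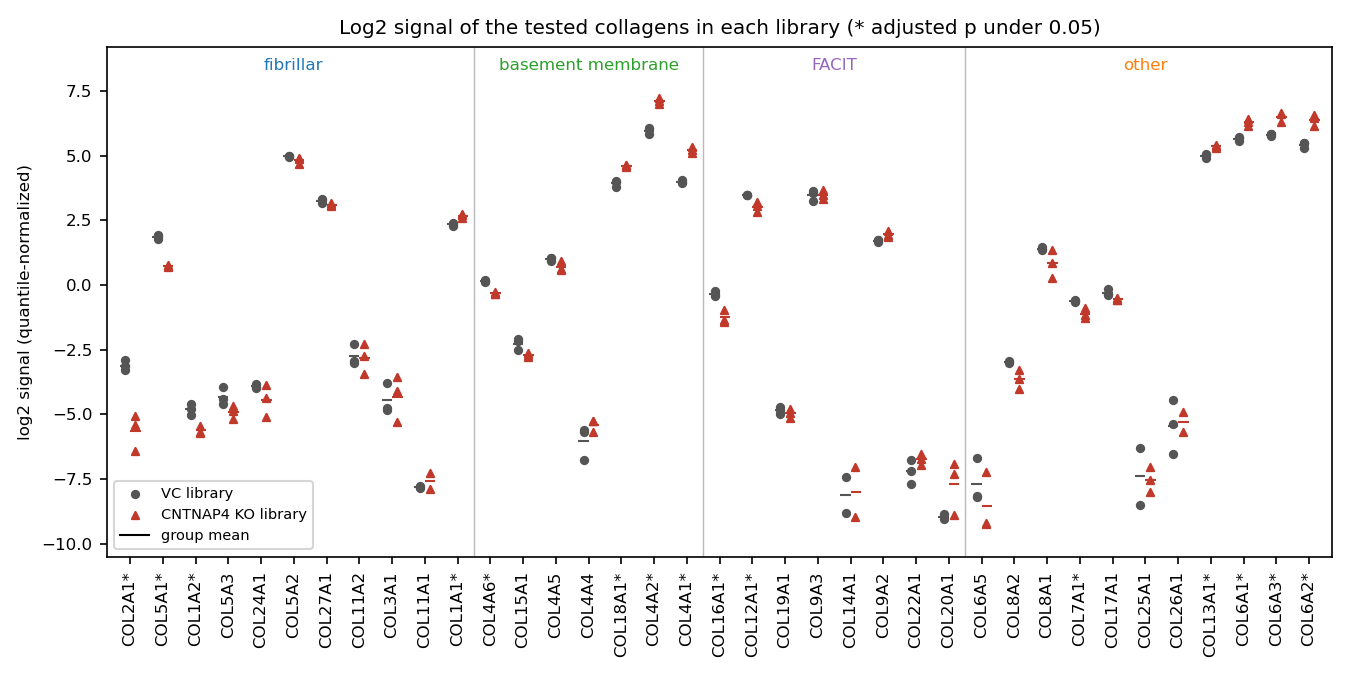
Log2 signal, as deposited, of the 37 tested collagens in the 3 VC libraries (grey circles) and the 3 CNTNAP4 KO libraries (red triangles), with group means as short lines. Genes are grouped by class, and an asterisk marks an adjusted p under 0.05. COL4A1 runs from 3.94 to 4.04 in VC and from 5.10 to 5.35 in KO, while the groups of COL3A1 overlap.

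Type VI collagen is built from the chains of COL6A1, COL6A2 and COL6A3, and all 3 rose. COL6A1 had log2 signals of 5.71, 5.56 and 5.70 in VC and 6.15, 6.40 and 6.31 in KO (log2 difference 0.63, SE 0.095, adjusted p 0.0131). COL6A2 had 5.48, 5.31 and 5.48 in VC and 6.16, 6.58 and 6.44 in KO (log2 difference 0.97, SE 0.13, adjusted p 0.0111). COL6A3 had 5.85, 5.77 and 5.83 in VC and 6.28, 6.64 and 6.60 in KO (log2 difference 0.69, SE 0.12, adjusted p 0.0153). In each of these genes the groups did not overlap, and KO replicate 1 was the lowest KO library. With single libraries left out the highest adjusted p was 0.0525 for COL6A1, 0.046 for COL6A2 and 0.0588 for COL6A3, each without VC replicate 3. COL6A3 passed in 2 of the 6 such fits and COL6A1 in 5. COL6A2 minus COL6A1 within a library was -0.23 ± 0.018 for VC and 0.105 ± 0.092 for KO (SD, n = 3 each), without overlap. COL6A3 minus COL6A1 overlapped, at 0.16 ± 0.042 for VC and 0.22 ± 0.084 for KO (SD, n = 3 each). The other type VI genes were near the lower end of the scale or without a value, so whether they changed is not shown. COL6A5 had values of -8.19, -8.16 and -6.67 in VC and -9.23, -9.22 and -7.22 in KO (adjusted p 0.378), and COL6A6 had no value in any library.

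COL6A1, COL6A2 and COL18A1 lie near each other on chromosome 21, as COL4A1 and COL4A2 do on chromosome 13, so the tested genes around them were counted. Of the 25 other tested genes from 10 before COL18A1 to 10 after COL6A2, 1 (LOC101928796, near COL6A1, log2 difference 0.98) was higher and 7 were lower in KO at an adjusted p under 0.05, with a median log2 difference of -0.33. Around COL4A1 and COL4A2, none of 20 neighbours was higher, 3 were lower and the median was -0.24. For all tested genes the shares were 13.1% higher and 19.8% lower. On chromosome 21, 22 of 207 tested genes were higher and 45 lower, and on chromosome 13, 37 of 334 were higher and 68 lower. Whether the neighbours differ from these shares was not tested. The median of all tested genes was -0.20 on chromosome 21 and -0.18 on chromosome 13, against -0.12 for the genes of other chromosomes in each case. COL14A1 and COL22A1 lie on chromosome 8 and COL9A3 and COL20A1 on chromosome 20, whose tested genes had medians of -0.32 and -0.25, each against -0.12 for the genes of all other chromosomes pooled, and none of these 4 collagens had an adjusted p under 0.05.

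**Figure D3:**
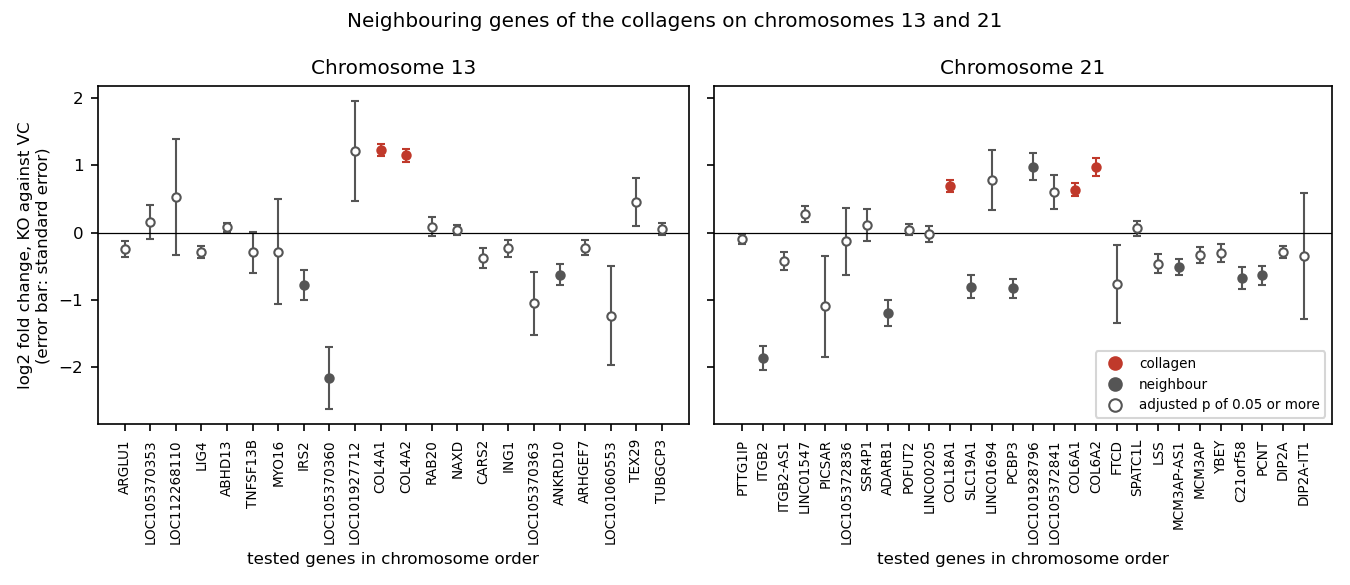
The log2 fold change, KO against VC, with its SE, of tested genes in chromosome order around COL4A1 and COL4A2 (left) and around COL18A1, COL6A1 and COL6A2 (right). Red points are collagens, grey points are neighbours and filled points have an adjusted p under 0.05. The 5 collagens lie between 0.63 and 1.23, and the medians of their neighbours are -0.24 and -0.33.

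Fibrillar collagens differed in direction among themselves. Type I collagen is a trimer of COL1A1 and COL1A2 chains, and the 2 genes had opposite signs. COL1A1 had log2 signals of 2.41, 2.28 and 2.34 in VC and 2.58, 2.73 and 2.72 in KO, and rose by 0.33 on the log2 scale (SE 0.079, adjusted p 0.0309). COL1A2 had values of -5.03, -4.81 and -4.59 in VC and -5.47, -5.72 and -5.68 in KO, and fell by 0.81 (SE 0.14, adjusted p 0.0161). All KO libraries were above all VC libraries for COL1A1 and below them for COL1A2. Within a library, COL1A2 minus COL1A1 was -7.15 ± 0.26 for VC and -8.30 ± 0.21 for KO (SD, n = 3 each), without overlap. That separation follows from those of the 2 genes and is not further evidence. COL1A1 passed in 1 of the 6 fits leaving out a library (highest 0.0994, without VC replicate 3) and COL1A2 in 3 (highest 0.0571, without KO replicate 3). With 1 added to the linear signal, which damps genes at low signals, the log2 difference of COL1A2 was -0.022 (adjusted p 0.388), and limma with trend and robust estimation gave -0.81 with an adjusted p of 0.113.

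COL5A1 encodes the main chain of type V collagen, which starts fibrils and limits their width, and its loss in heterozygotes causes classical Ehlers-Danlos syndrome. COL5A1 had log2 signals of 1.88, 1.78 and 1.92 in VC and 0.77, 0.68 and 0.74 in KO. The groups were separated by a gap several times the spread within them, and the log2 difference was -1.13 (SE 0.073, adjusted p 0.00571), or 45.8% of the VC signal. The highest adjusted p when a library was left out was 0.0348. COL5A2, the partner chain, had values of 4.99, 5.00 and 4.94 in VC and 4.91, 4.86 and 4.68 in KO (log2 difference -0.16, SE 0.087, adjusted p 0.202). COL5A1 minus COL5A2 within a library was -3.12 ± 0.099 for VC and -4.09 ± 0.13 for KO (SD, n = 3 each), without overlap. For COL5A3 the log2 difference was -0.60 (adjusted p 0.086).

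COL2A1, the collagen of cartilage, had the largest drop among the 37 tested collagens, which do not include COL4A3, with values in VC only. It had log2 signals of -2.92, -3.13 and -3.30 in VC and -5.41, -6.41 and -5.08 in KO. All KO libraries were below all VC libraries, and KO replicate 2 was lowest. The log2 difference was -2.52 (SE 0.36, adjusted p 0.0122, highest 0.0495 when a library was left out), or 17.5% of the VC signal. After adding 1 to the linear signal the difference was -0.13 (adjusted p 0.0105), since the values lie low on the scale. SOX9, the factor that drives COL2A1 in cartilage, had log2 signals of 5.95, 5.86 and 5.94 in VC and 5.98, 5.90 and 6.05 in KO (adjusted p 0.567). COL11A1 and COL11A2, which join type II collagen in cartilage fibrils, had log2 differences of 0.24 (adjusted p 0.416) and -0.088 (adjusted p 0.866), and COL11A1 had no value in KO replicate 2.

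COL3A1, the chain of type III collagen of soft tissues, had values of -4.76, -3.80 and -4.83 in VC and -5.30, -3.55 and -4.11 in KO. The groups overlapped, and the log2 difference of 0.14 had a SE of 0.53 (adjusted p 0.851). COL27A1 (-0.14, adjusted p 0.207) and COL24A1 (-0.52, adjusted p 0.245), fibrillar collagens of cartilage and bone, also had log2 differences without an adjusted p under 0.05.

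**Figure D4:**
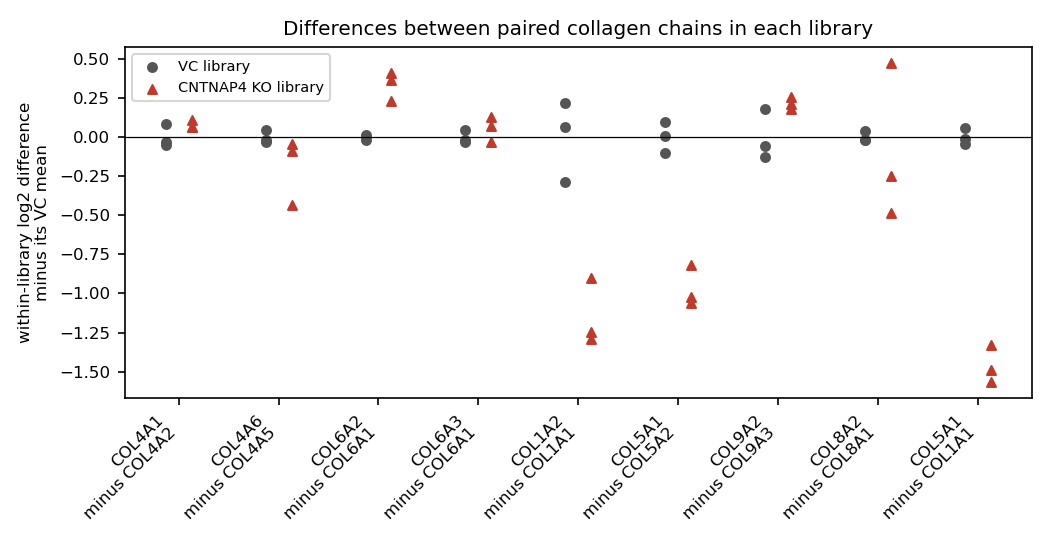
The log2 difference between a pair of collagen chains within each library, minus its VC mean, for 9 pairs of chains, in VC (grey circles) and CNTNAP4 KO libraries (red triangles). COL4A1 minus COL4A2 stays near 0 in KO, while COL1A2 minus COL1A1 and COL5A1 minus COL5A2 lie about 1 lower.

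Of the FACIT collagens, COL16A1 and COL12A1 fell. COL16A1, found in small fibrils near cells, had log2 signals of -0.43, -0.35 and -0.23 in VC and -0.95, -1.34 and -1.43 in KO (log2 difference -0.91, SE 0.15, adjusted p 0.0149, and 0.0584 without VC replicate 3). COL12A1, which bridges fibrils in tendon, fascia and bone, had 3.48, 3.50 and 3.47 in VC and 3.19, 2.81 and 3.04 in KO (log2 difference -0.47, SE 0.11, adjusted p 0.0327, and 0.095 without VC replicate 1). The groups of both genes did not overlap. The type IX chains COL9A2 (0.24, adjusted p 0.0905) and COL9A3 (0.026, adjusted p 0.902) had log2 differences that did not pass the test. The other tested FACIT genes, COL14A1, COL19A1, COL20A1 and COL22A1, had mean signals below -4.8 in both groups and log2 differences between -0.12 and 1.25, none with an adjusted p under 0.05. COL9A1 had 1 value in VC and none in KO, and COL21A1 had 1 value in VC and 3 in KO, so neither was tested.

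Among the remaining types, COL13A1 rose and COL7A1 fell. COL13A1, a transmembrane collagen of cell adhesion sites, had log2 signals of 5.07, 4.91 and 5.01 in VC and 5.37, 5.41 and 5.29 in KO (log2 difference 0.36, SE 0.080, adjusted p 0.0276, and 0.0885 without VC replicate 3). COL7A1, which forms the anchoring fibrils under epithelia, had -0.58, -0.63 and -0.64 in VC and -0.88, -1.29 and -1.17 in KO (log2 difference -0.50, SE 0.12, adjusted p 0.0335, and 0.101 without VC replicate 1). For both genes the KO libraries stood apart from the VC libraries, and each passed in 1 of the 6 fits leaving out a library. The network-forming COL8A2 (-0.66, adjusted p 0.0523) and the hemidesmosome collagen COL17A1 (-0.26, adjusted p 0.0863) had lower means without passing the test. COL8A1, the partner of COL8A2, ranged from 0.28 to 1.36 in KO and from 1.35 to 1.49 in VC (log2 difference -0.58, adjusted p 0.163). COL25A1 and COL26A1 had SEs of 0.75 and 0.70 and did not pass the test. COL28A1, with 1 value in KO, was not tested, and COL10A1, the collagen of hypertrophic cartilage, and COL23A1 had no value in any library. Antisense genes listed at COL4A2, COL18A1, COL5A1 and COL1A2 had at most 1 value per group, and whether counting used strand is not given, so reads of a collagen and its antisense partner cannot be told apart.

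Genes that make, move, trim, bind or cut collagen were counted from 9 lists with 73 genes, of which 67 were tested. Of these, 23 rose and 10 fell in KO, 49.3% of those tested against 32.9% of all tested genes. In the upper 50% of mean signal 59.1% of all genes were called, so the background share depends on signal. Whether the shares differ was not tested. By direction, 13.1% of all tested genes rose and 19.8% fell, which is the background for each list below. Of the 33 called list genes 12, MMP1 included, had an adjusted p under 0.05 with each library left out in turn. The counts of called list genes were 11, 13 and 10 higher and 3, 5 and 2 lower without VC replicates 1, 2 and 3. Without KO replicate 3 they were 14 and 4, and without KO replicate 2 there were 6 lower. In these fits 7.54%, 13.1%, 6.57%, 10.9% and 23.6% of all tested genes were called. Of 10 genes for proline hydroxylation and isomerisation 2 rose and 2 fell. P4HB, a protein disulfide isomerase that is also a subunit of prolyl 4-hydroxylase, had a log2 difference of 0.60 (adjusted p 0.0299, and 0.0875 without VC replicate 3). PPIB, a prolyl isomerase, had one of 0.57 (adjusted p 0.0368, and 0.103 without KO replicate 3). P3H2, a prolyl 3-hydroxylase that acts on type IV collagen, fell (-0.77, adjusted p 0.0265, and 0.0804 without VC replicate 1), as did P3H3 (-0.36, adjusted p 0.0467, and 0.136 without VC replicate 1). The P3H3 log2 fold change did not pass with median-centred libraries (-0.28, adjusted p 0.05575) or with genes kept at 1 or more values per group (adjusted p 0.0501). Of 5 genes for lysine hydroxylation and glycosylation, PLOD2, the telopeptide lysyl hydroxylase, rose (0.52, adjusted p 0.0335, and 0.101 without VC replicate 3) and COLGALT1, a collagen galactosyltransferase, fell (-0.48, adjusted p 0.0346, and 0.104 without VC replicate 1).

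Of 9 genes for procollagen folding and export 3 rose and none fell. SEC24D, a COPII coat protein needed for procollagen export, had log2 signals of 2.60, 2.54 and 2.57 in VC and 3.72, 4.68 and 4.60 in KO, with KO replicate 1 nearest to VC (log2 difference 1.76, adjusted p 0.0137, and 0.0538 without VC replicate 3). LARP6, which binds collagen messenger RNA, had 3.03, 2.90 and 2.99 in VC and 4.05, 4.73 and 4.45 in KO (log2 difference 1.44, adjusted p 0.0101). FKBP10, a procollagen chaperone, rose by 0.45 (adjusted p 0.0193, and 0.0685 without VC replicate 3), whereas SERPINH1, the collagen chaperone HSP47, had a log2 difference of -0.029 (adjusted p 0.757). Of 8 propeptide processing genes, BMP1 rose (0.25, adjusted p 0.0436, and 0.123 without VC replicate 3) and TLL2 fell (-0.52, adjusted p 0.0201, and 0.0641 without VC replicate 3), both tolloid proteinases. TLL2 did not pass with 1 added to the linear signal (-0.041, adjusted p 0.142) or with trend and robust estimation (adjusted p 0.172). The lysyl oxidases that crosslink collagen and elastin moved apart. LOX had log2 signals of 2.16, 2.15 and 2.14 in VC and 3.26, 3.89 and 3.74 in KO (log2 difference 1.48, SE 0.18, adjusted p 0.00963). LOXL1 had 4.16, 3.77 and 4.23 in VC and 2.89, 2.90 and 2.86 in KO (log2 difference -1.17, SE 0.14, adjusted p 0.00963). LOXL3 also fell (-0.72, adjusted p 0.0316, and 0.0939 without VC replicate 3).

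Among proteins that organise fibrils, 6 of 11 genes were tested. FN1, encoding fibronectin, rose by 0.57 (adjusted p 0.0105, and 0.0504 without VC replicate 3) and SPARC, encoding osteonectin, rose by 0.37 (adjusted p 0.0213, and 0.076 without VC replicate 1). BGN, encoding the proteoglycan biglycan, had a log2 difference of -0.87 (adjusted p 0.00815), and TNXB, encoding tenascin X, of -1.23 (adjusted p 0.0258, and 0.081 without VC replicate 3). FMOD and OGN had no value in any library.

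Of 10 collagen receptor genes 9 were tested, 6 rose and 1 fell. The integrin chains ITGA10 (1.002, adjusted p 0.00675), ITGA2 (0.94, adjusted p 0.00789), ITGA11 (0.71, adjusted p 0.0182) and their partner ITGB1 (0.23, adjusted p 0.0452) had higher signals in KO, and ITGA1 had a lower one (-0.49, adjusted p 0.0123), as log2 differences. The discoidin receptor DDR2 rose by 0.51 (adjusted p 0.0207) and MRC2, a receptor that takes up collagen fragments, by 0.75 (adjusted p 0.0181). ITGA2 and ITGA10 held with each library left out, while the highest adjusted p was 0.0634 for ITGA11, 0.148 for ITGB1, 0.0569 for ITGA1 and 0.0619 for MRC2 without VC replicate 3 and 0.0749 for DDR2 without VC replicate 1.

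Of 7 collagen-degrading genes 5 rose and 1 fell, with a median log2 difference of 1.66. MMP9 (2.60, adjusted p 0.00763) and MMP2 (0.72, adjusted p 0.00692), gelatinases that cut type IV and denatured collagen, and MMP13 (1.42, adjusted p 0.00856) and MMP14 (1.66, adjusted p 0.0101), which cut fibrillar collagen, rose as log2 differences. MMP1, interstitial collagenase, had 9.49, 9.60 and 9.50 in VC and 12.04 in each KO library, the top value of the table, where quantile normalization leaves no spread, so its SE is too small. MMP9, MMP2, MMP13 and MMP14 had an adjusted p under 0.05 with each library left out, and the same count for MMP1 says nothing of its stability. CTSK, encoding cathepsin K, fell by 1.69 (adjusted p 0.0352), with an adjusted p of 0.101 once VC replicate 1 was left out. Of 8 factors known to act on collagen genes, SOX6 (1.14, adjusted p 0.00902) and CREB3L2 (0.76, adjusted p 0.0132, and 0.0547 without VC replicate 3) rose. SOX6 lay low on the scale, with means of -4.39 in VC and -3.24 in KO. No factor was called lower. SOX5 had all KO libraries below all VC libraries without passing the test (-0.72, adjusted p 0.0581). RUNX2 (0.21, adjusted p 0.177) and CREB3L1 (-0.35, adjusted p 0.165) did not pass either.

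**Figure D5:**
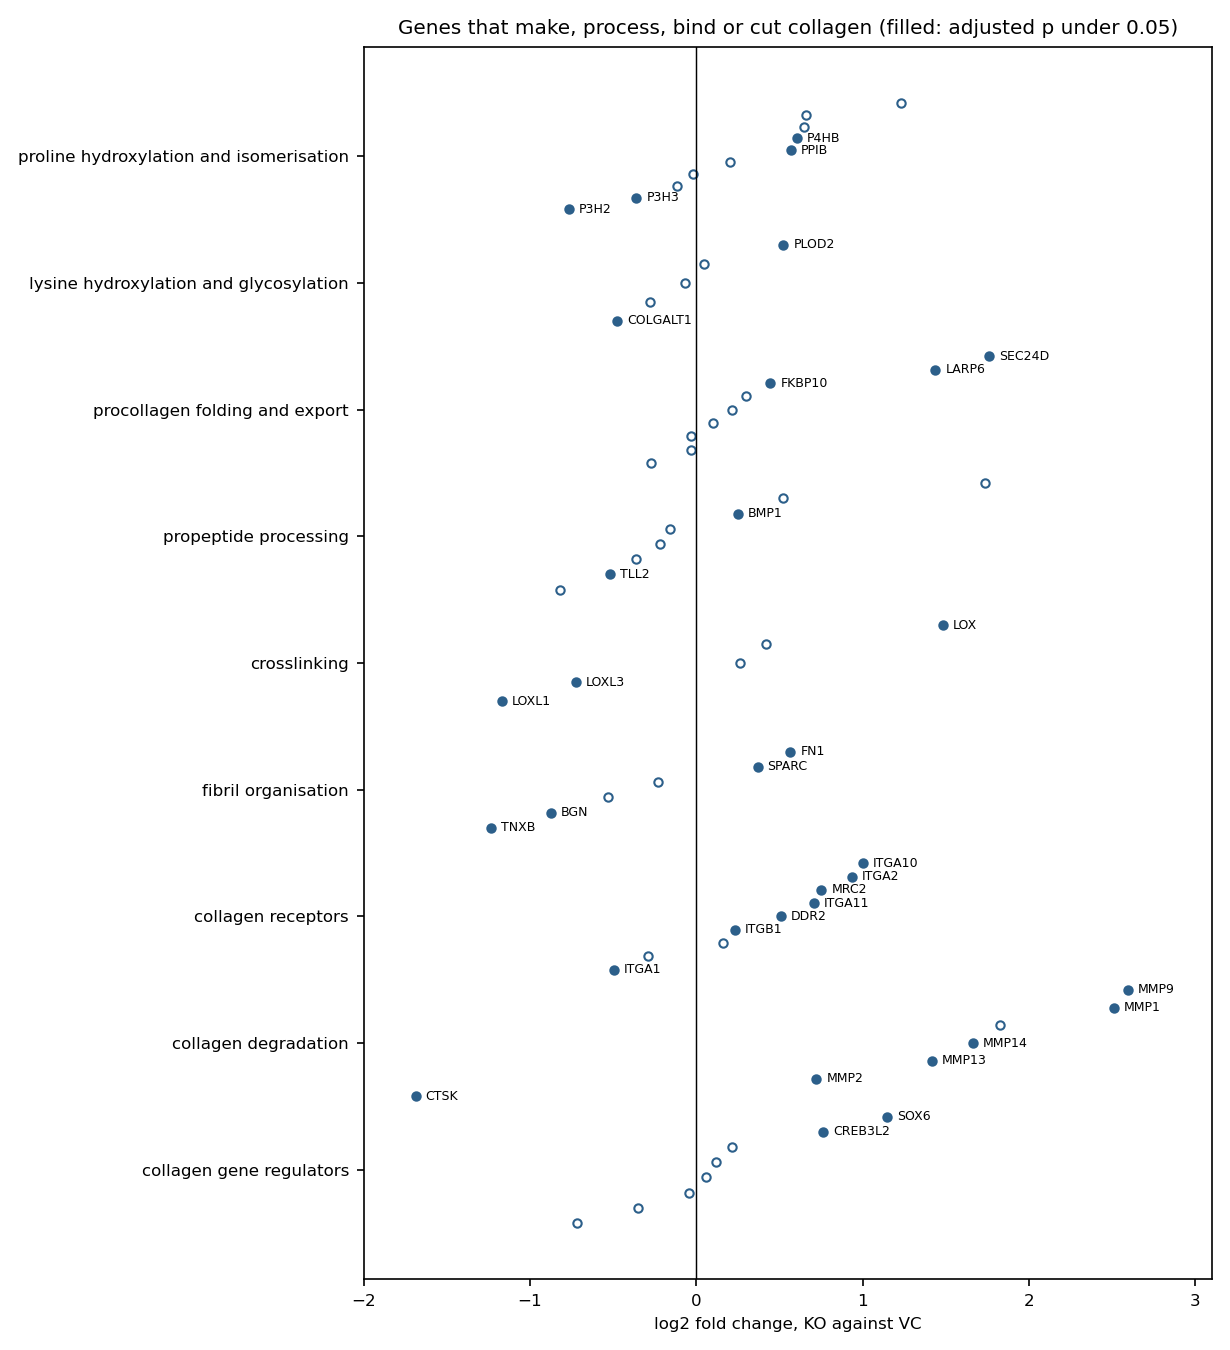
The log2 fold change, KO against VC, of the 67 tested genes of 9 lists that make, move, trim, organise, bind or cut collagen. Filled and named points have an adjusted p under 0.05, 23 above 0 and 10 below, with MMP9 and MMP1 above 2 and CTSK, TNXB and LOXL1 below -1.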

How the data were processed

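RNA from 3 VC and 3 KO cultures of 143B cells was sequenced by the authors. Per the submitters' processing notes, CASAVA, STAR, Partek and build GRCh38.p13 were used, and the methods also name CLC Genomics software. The authors deposited log2 signals by gene symbol, which were found to be quantile-normalized (percentiles of the 6 libraries differed by at most 0.000488). The linear unit, annotation, strand setting and read counts are not given in the sources used here, so the depth is unknown.

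Signals were compared with limma 3.58.1 in R 4.3.3 (linear model, empirical Bayes moderation) without further normalization, on 19306 genes, each having 2 or more values per group. The test was two-sided with Benjamini-Hochberg adjustment over all these genes, and a gene was called at an adjusted p under 0.05. The fit was tested on simulated data. Collagen classes and lists were fixed by hand, and members, lists and tests were chosen with earlier results of these data known. Chain pairs and neighbouring genes were chosen after the values were seen and are descriptions. Named genes are all called collagens and list genes, the main fibrillar, type IV and type VI chains and collagens with an adjusted p of 0.05 to 0.1. Also named are collagens with values in 1 group only and, markers aside, at most 4 uncalled genes per list. Other collagens given with values, and SOX5, were chosen after their values were seen. Chromosomes came from RefSeq by symbol (17667 of 19306 tested genes matched) and promoter sequences, for 32 of 44 collagens, from RefSeq GRCh38.p14. Alternatives were restriction to the 50% of genes with the highest mean signal, genes with 6 values, at least 1 value in each group, median-centred libraries, 1 added to the linear signal, limma with trend and robust estimation, a replicate block and each library left out.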

Additional observations from a re-analysis of the deposited data

How the results depend on the processing

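No called collagen or collagen-handling gene changed sign in any alternative, and median centring kept 8 collagens higher and 7 lower, while the median of all tested genes moved from -0.13 to -0.042 and the share of higher genes among those called from 39.8% to 48.2%. Restricting to the upper 50% of mean signal left 15 tested collagens, of which 9 were called higher and 2 lower. Of all genes tested there, 59.1% were called. The median log2 fold change of the collagens was then 0.33. That median was -0.041 with median-centred libraries and -0.0032 with 1 added to the linear signal, and lay between -0.23 and -0.12 with single libraries left out. Samples with the same replicate number did not deviate together (correlations 0.023, 0.005 and -0.007). A replicate block gave 1740 genes called (9.16% of those tested), 3 collagens higher and 2 lower, and 11 and 3 collagen-handling genes. With single libraries left out, 1223 to 8669 genes were called (6.57% to 47% of those tested). The ranges were 4 to 10 collagens higher and 3 to 11 lower, and 10 to 28 and 2 to 12 collagen-handling genes. Log2 differences that changed sign were those of COL3A1 (-0.24 to 0.63 with single libraries left out), COL25A1 (-0.36 to 0.11, and 0.11 under the block), COL11A2 (-0.36 to 0.22), COL26A1 (-0.39 to 0.67; the COL26A1 log2 fold change with 1 added was -0.000637) and COL9A3 (-0.088 to 0.11), none of which had passed the test. The cause of these shifts was not tested. Collagens near the lower end of the scale, such as COL14A1 and COL20A1, rest on few values, and the number of reads behind them is unknown.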
